A study of Mus musculus with 31 samples.

Results

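The genes examined here encode the hypothalamic peptides that drive or restrain the anterior pituitary and the reproductive axis, with 1 receptor and 1 binding protein. They are Trh, Crh, Ghrh, Sst, Gnrh1, Kiss1, Tac2, Crhr1 and Crhbp, 9 genes matched by symbol to the Ensembl IDs of a count table of 54532 gene IDs. 8 of the 9 were among the 18743 genes with enough reads to be tested, and Kiss1 was not. The table came from RNA sequencing of the hypothalamus of C57BL/6J mice, an inbred strain, at 4 months of age. The groups were daughters of obesogenic dams (7 libraries), daughters of control dams (8), sons of obesogenic dams (8) and sons of control dams (8). Obesogenic dams received a diet high in fat and sugar through pregnancy and lactation, and control dams a control diet. Every offspring, whichever its dam, went onto chow when weaned at postnatal day 21 and received the obesogenic diet itself for 4 weeks beginning at 3 months, so no group had offspring kept on chow throughout. Groups are named below by the diet of the dam. The library titles are numbers that the labels do not tie to animals or litters, and 2 titles hold 2 numbers each, so what these 2 libraries were made from is not stated. The p-values measure no more than the spread among libraries, which may in part be technical.

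Neurons of the hypothalamus release the products of Trh, Crh, Ghrh, Sst and Gnrh1 at the median eminence into the portal vessels of the pituitary. Thyrotropin-releasing hormone (Trh) stimulates secretion of thyrotropin, corticotropin-releasing hormone (Crh) that of corticotropin, and growth hormone-releasing hormone (Ghrh) that of growth hormone, which somatostatin (Sst) inhibits. Gonadotropin-releasing hormone (Gnrh1) drives the gonadotropins, and its neurons are activated by kisspeptin (Kiss1), made in the arcuate nucleus by neurons that also make neurokinin B (Tac2) and dynorphin. Crhr1 is the main receptor of CRH, and Crhbp encodes a secreted protein that binds CRH and limits its access to receptors.

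Library totals were 24627042 to 34232678 read pairs in obesogenic females, 28019596 to 36923748 in control females, 26128150 to 36283599 in obesogenic males and 23118626 to 38547288 in control males. At that depth 1 read pair was worth 0.0254 to 0.0442 CPM (read counts scaled to a common library size with TMM factors, as all CPM here). 3 libraries stood apart, with a median correlation to the others of 0.910 to 0.936, against 0.967 to 0.979 for the other 28. They were obesogenic female 3, control female 5 and control male 6. 2 more, control female 7 and control male 7, went against their sex label. Group levels are therefore given for the 26 libraries without these 5 (6 obesogenic females, 6 control females, 8 obesogenic males and 6 control males), and fold changes with and without them. Reads fell on 18513 genes in obesogenic female 3, 18734 in control male 6 and 21775 in control female 5. The 26 libraries had reads on 21311 to 22918 genes. In these 26 libraries the summed level of 18 hypothalamic marker genes was 1456 to 2531 CPM, with Pmch at 450.5 to 1168 CPM and Otp at 28.96 to 61.0 CPM, so the labelled tissue had its defining markers.

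Per kilobase of exon, Sst was the most abundant of the 8 measured genes, with a median of 217 CPM per kb over the 26 libraries (lowest 166, highest 373). Trh followed at 94.1 (37.6 to 173), then Tac2 at 28.8 (20.5 to 51.9) and Ghrh at 19.2 (11.5 to 33.9 CPM per kb). Lower still were Crhbp at 8.81 (3.70 to 14.7), Gnrh1 at 5.72 (1.996 to 15.5), Crhr1 at 4.22 (2.24 to 5.44) and Crh at 2.06 (0.879 to 4.48 CPM per kb). The ranges of all neighbours in this order overlapped. Within a library the upper order was nearly fixed, since Sst exceeded Trh, Trh exceeded Tac2 and Ghrh exceeded Crhbp in 26 of 26 libraries, and Tac2 exceeded Ghrh in 25. Each of the 3 lower steps, Crhbp over Gnrh1, Gnrh1 over Crhr1 and Crhr1 over Crh, held in 20 of 26. Over the 26 libraries together, Gnrh1 and Crh varied most, with coefficients of variation of 47.9% and 42.7%, against 21.3% for Sst and 23.7% for Crhr1. This order did not hold in every group. For Gnrh1 the coefficient was 70.2% in control females and 22.2% in control males, where that of Crhr1 was 29.6%.

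**Figure D1:**
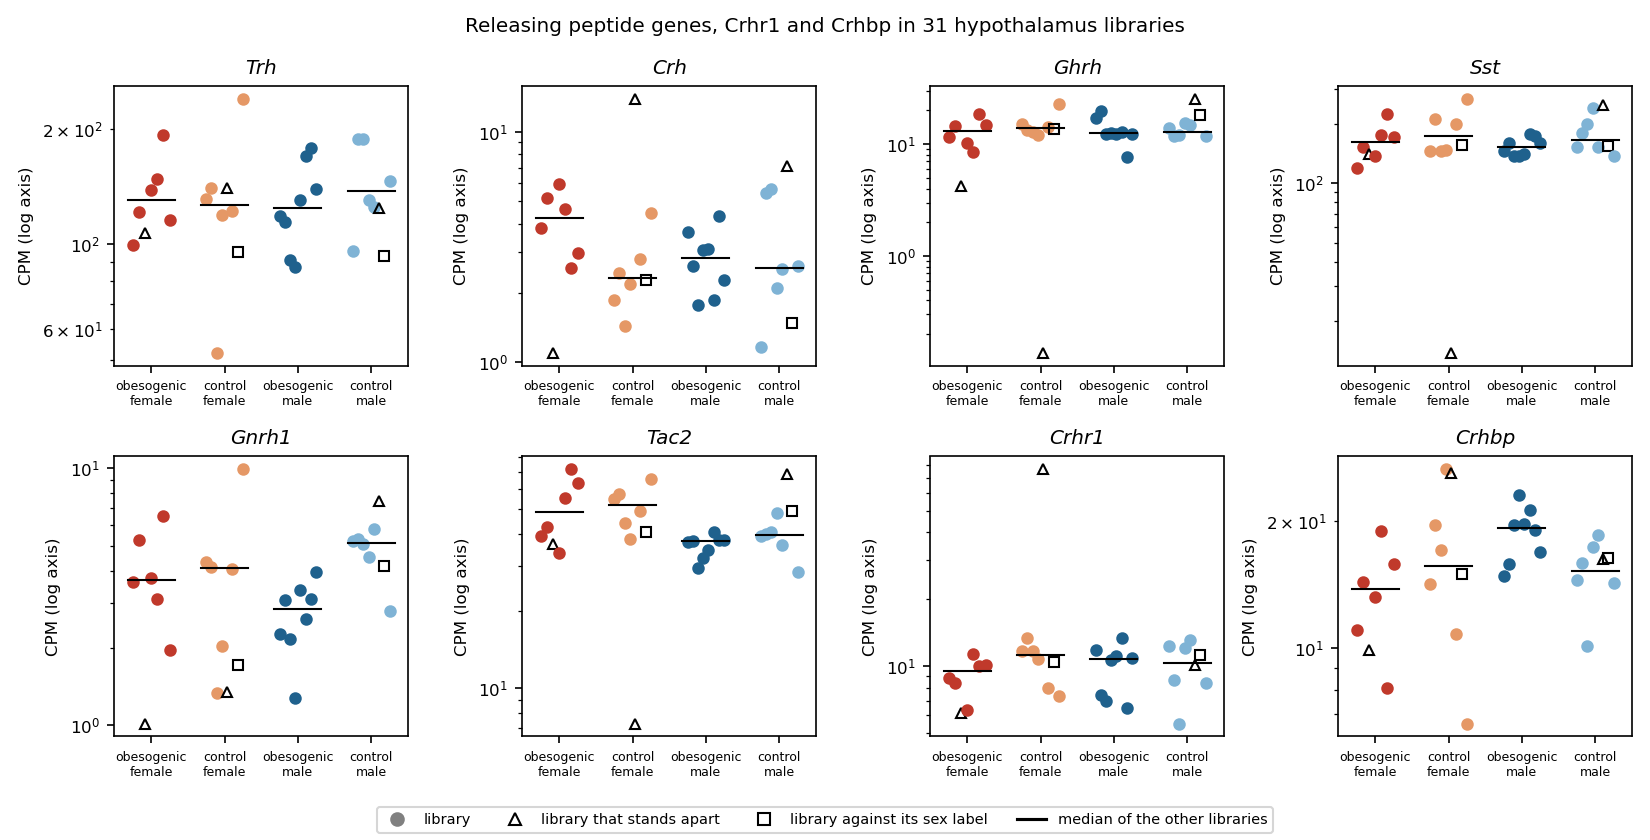
Levels of the 8 measured genes in CPM (log axes), 1 point per library, by maternal diet and sex. Horizontal lines are medians over the 26 libraries without open symbols, triangles are the 3 libraries that stand apart and squares the 2 against their sex label; the lowest Ghrh, Sst and Tac2 and the highest Crh and Crhr1 values are the triangle of control female 5 (0.135, 13.8, 7.27, 13.9 and 76.8 CPM).

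The promoters of the 3 genes most abundant per kilobase are shown. Sst varied with Tac2 and with Trh across the 26 libraries, and any part of these sequences in that was not tested. The sequences are from RefSeq (build GRCm38.p6), which held 7 of the 9 genes, all but Crh and Gnrh1. They are written 5′ to 3′ on the gene's strand, positions are counted from the RefSeq start with -1 as the base before it, and capitals mark the cAMP response element TGACGTCA or its 5-letter core TGACG, on either strand (CGTCA on the opposite one). The Sst stretch is chr16:23890874-23890903 (minus strand, positions -59 to -30), the Trh stretch chr6:92244651-92244770 (minus strand, -120 to -1) and the Tac2 stretch chr10:127724358-127724477 (plus strand, -120 to -1). The Sst gene model used for the counts starts further upstream than the RefSeq start, at 23890958. The 30 Sst bases shown, with their match, therefore lie inside that model, and for this reason no longer Sst stretch is printed.
Sst: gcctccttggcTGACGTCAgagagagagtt
Trh: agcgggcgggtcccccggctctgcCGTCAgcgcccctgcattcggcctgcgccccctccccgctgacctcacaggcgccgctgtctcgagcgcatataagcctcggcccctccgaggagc
Tac2: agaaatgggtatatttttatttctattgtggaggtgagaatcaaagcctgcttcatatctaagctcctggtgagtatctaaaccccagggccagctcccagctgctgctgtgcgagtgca
The search covered the 250 bases before the start in 8 promoters of the 7 genes. Members are counted by gene, with a gene counted where any of its promoters matched, and all genes by promoter, so the shares have different units. The full element occurred in 1 of the 7 genes, Sst at -48 to -41, and in 1.55% of 32851 promoters of all genes. The core, which the full element contains on both strands, occurred in 5 of the 7 (Kiss1, Ghrh, Trh, Crhbp and, only within its full element, Sst). It occurred in 17.8% of all promoters, those with the full element included. In Trh it lay at -96 to -92. The nuclear receptor motif AGGTCA occurred in 4 of the 7 (Kiss1, Ghrh, Trh and Crhbp) and in 14.02% of all promoters, the consensus estrogen response element in 0 of 7 and 0.0639%, and the TATA box TATAAA in 1 of 7 (Ghrh) and 12.4%, each searched on both strands. The searched Tac2 window held none of these letters.

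Kiss1 (ENSMUSG00000116158, chromosome 1, 133321875 to 133329901, plus strand, GRCm38) was listed at 0 read pairs in 31 of 31 libraries. All 779 of its exon bases, 100%, were shared on the same strand with other gene models. The model ENSMUSG00000098306 (Gm28040), which also covers exons of the neighbouring gene Golt1a, shared all 779 and was itself at 0 in 31 libraries. A second Gm28040 model, ENSMUSG00000115958, shared 498 bases and had 0 to 25 pairs per library, 182 in all over 24 libraries. Golt1a (ENSMUSG00000103421) shared 102 bases and had 5 pairs in 1 library. The counting command, per the file headers, names no option for reads that overlap several genes, and such pairs were left out, so the 0 of Kiss1 says nothing about its level. No exon base of the other 8 genes was shared in this way, and Kiss1 takes no part in the comparisons that follow.

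**Figure D2:**
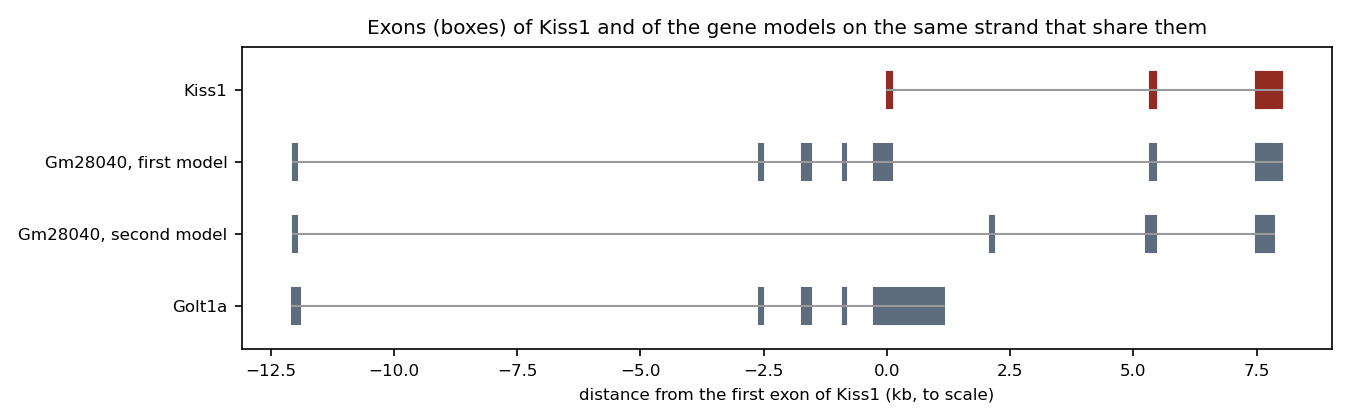
Exons (boxes, to scale) of Kiss1 and of the 3 gene models on its strand that share them, by distance in kb from the first exon of Kiss1. Each Kiss1 exon lies within an exon of the first Gm28040 model, so all 779 exon bases are shared.

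The effect of the dam's diet was examined first within each sex, as the labels divide the samples. In females, 3 of the 8 tested genes were higher and 5 lower in offspring of obesogenic dams, with a median log2 fold change of -0.04, against -0.01 over all genes. In males 1 was higher and 7 lower, with a median of -0.23, against 0.00 over all genes. None of the 8 passed an adjusted p of 0.05 in either sex by edgeR's quasi-likelihood test, where 0% of the 18743 genes were called in females and 0% in males. At an unadjusted p under 0.05 stood 1522 genes in females, 647 in males and 1 of the 8 in each sex, and DESeq2 called 6 and 1 genes, none of them among the 8. Without the 5 libraries 2 of 8 were higher and 6 lower in each sex, again with none called (0% of 18694 genes in females and 0% in males). The ranges of obesogenic and control libraries overlapped for each of the 8 genes in both sexes. The test of whether the diet effect differed between the sexes called 0% of genes, none of the 8, with 679 genes at an unadjusted p under 0.05 by edgeR and 6 called by DESeq2. Over both sexes together 0% were called as well, none of the 8, with 1918 genes at an unadjusted p under 0.05 and 5 called by DESeq2. Without the 5 libraries these 2 tests also called 0%. In whole tissue, fewer cells of a type and less RNA per cell cannot be told apart.

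Trh (ENSMUSG00000005892, chromosome 6, 92242061 to 92244650), whose product stands at the head of the thyroid axis, spanned 99.6 to 193 CPM in obesogenic females (median 130.2) and 52.0 to 239 CPM in control females (median 126). In males it spanned 87.1 to 178 CPM in offspring of obesogenic dams (median 124) and 96.1 to 188 CPM in those of control dams (median 138). The medians of the 4 groups lay close together, and both the lowest and the highest library were control females (replicates 3 and 8). The log2 fold change for maternal diet was 0.02 ± 0.26 (SE) in females and -0.18 ± 0.24 in males without the 5 libraries, with 95% intervals of -0.51 to 0.56 and -0.67 to 0.32. With all 31 it was 0.02 ± 0.21 and -0.08 ± 0.21.

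Of the 11 other genes listed for the thyroid axis, 4 were higher and 7 lower in offspring of obesogenic dams over both sexes, none was called, and their median log2 fold change was -0.01. With 26 libraries 7 were higher and 4 lower, with a median of 0.03. The smallest p in that list with 31 libraries belonged to Dio2, the deiodinase that activates thyroid hormone in glia and tanycytes, at -0.44 ± 0.22 (edgeR, adjusted p = 0.5004) with 31 libraries and -0.24 ± 0.15 with 26. Next was Slco1c1, a thyroid hormone transporter, at 0.15 ± 0.09 and 0.18 ± 0.09.

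Ghrh (ENSMUSG00000027643, chromosome 2, 157329497 to 157347506), the stimulator of growth hormone, spanned 8.53 to 18.7 CPM in obesogenic females (median 13.1) and 12.2 to 22.6 CPM in control females (median 13.8). In males its range was 7.71 to 19.9 CPM in offspring of obesogenic dams (median 12.5) and 11.7 to 15.5 CPM in those of control dams (median 12.9). In both sexes the obesogenic group reached lower than every retained control library, and in males also higher. The diet log2 fold change was -0.20 ± 0.18 in females and 0.01 ± 0.17 in males without the 5 libraries, and -0.14 ± 0.40 and -0.21 ± 0.38 with them.

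Sst (ENSMUSG00000004366, chromosome 16, 23889573 to 23890958), the inhibitor of growth hormone, spanned 119.6 to 226 CPM in obesogenic females (median 163) and 146 to 268.9 CPM in control females (median 174). In males it spanned 138 to 178 CPM in offspring of obesogenic dams (median 153) and 138 to 241 CPM in those of control dams (median 166). Below the control median lay 4 of 6 obesogenic females and 6 of 8 obesogenic males, and below the control mean 5 of 6 and 7 of 8, with overlapping ranges. The log2 fold change was -0.19 ± 0.15 in females and -0.20 ± 0.14 in males (edgeR, adjusted p = 0.755 and 0.9996), and with all 31 libraries -0.01 ± 0.28 and -0.25 ± 0.27.

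Of 11 tested growth axis genes, 9 were higher and 2 lower over both sexes, with a median of 0.18. Without the 5 libraries the counts were 6 and 5 and the median 0.01. Igf1, the growth factor that carries much of the action of growth hormone, had the smallest p of the list with 31 libraries, at -0.64 ± 0.28 (edgeR, adjusted p = 0.464), and stood at -0.07 ± 0.14 with 26. Sstr3, a somatostatin receptor of neuronal cilia, stood at -0.24 ± 0.12 with 31 libraries (edgeR, adjusted p = 0.498) and -0.05 ± 0.08 with 26, and none of the list was called.

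Crh (ENSMUSG00000049796, chromosome 3, 19693401 to 19695396), the releaser of corticotropin, spanned 2.56 to 5.91 CPM in obesogenic females (median 4.22) and 1.44 to 4.45 CPM in control females (median 2.32) without the 5 libraries. In males it spanned 1.78 to 4.31 CPM in offspring of obesogenic dams (median 2.85) and 1.16 to 5.64 CPM in those of control dams (median 2.57). 6 of 6 obesogenic females lay above the mean and the median of control females, while the ranges overlapped, with control female 8 at 4.45 CPM. The log2 fold change was 0.72 ± 0.31 in females (95% interval 0.09 to 1.35, edgeR unadjusted p = 0.0271, adjusted p = 0.553) and -0.20 ± 0.29 in males. The difference between the sexes, tested as the interaction, was 0.92 ± 0.42 (edgeR unadjusted p = 0.0368, adjusted p = 0.9999).

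The direction of the Crh difference in females turned with the libraries that stood apart. With all 31 libraries the log2 fold change was -0.08 ± 0.42, and without only those 3 it was 0.75 ± 0.30. Obesogenic female 3 had 1.10 CPM and control female 5 had 13.9 CPM, the lowest and the highest Crh values of the data. With all 31 the interaction was 0.23 ± 0.59. Markers of the anterior and intermediate pituitary, a tissue that can adhere to the dissected hypothalamus, ran against Crh across the 26 libraries (11 measured markers, r = -0.60, rho = -0.62, adjusted permutation p = 0.0268 and 0.0375). Their summed level was 26.8 to 577 CPM in obesogenic females and 10.6 to 6210 CPM in control females (medians 134 and 323), and 10 of 12 were lower in obesogenic females (median log2 fold change -0.55, none called, Gh and Prl at 0 in at least 1 of the 26 libraries). Their part in the Crh difference was not tested.

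Crhr1 (ENSMUSG00000018634, chromosome 11, 104132855 to 104175523), the receptor through which CRH acts on corticotropes and on many forebrain neurons, spanned 6.35 to 11.3 CPM in obesogenic females (median 9.46) and 7.36 to 13.3 CPM in control females (median 11.2). In males its range was 6.48 to 13.4 CPM in offspring of obesogenic dams (median 10.7) and 5.51 to 13.1 CPM in those of control dams (median 10.4). 5 of 6 obesogenic females lay below the control median, within an overlapping range. With all 31 libraries the log2 fold change in females was -1.10 ± 0.37 (edgeR unadjusted p = 0.00551, adjusted p = 0.524), and control female 5 alone had 76.8 CPM. Without the 5 libraries it was -0.19 ± 0.20, and in males it was -0.02 ± 0.18. The interaction was -1.05 ± 0.51 with all 31 libraries (edgeR unadjusted p = 0.0462, adjusted p = 0.9996) and -0.17 ± 0.27 with 26.

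Crhbp (ENSMUSG00000021680, chromosome 13, 95431371 to 95444924), the binding protein of CRH, spanned 8.08 to 18.9 CPM in obesogenic females (median 13.8) and 6.65 to 26.4 CPM in control females (median 15.6). In males it spanned 14.8 to 22.96 CPM in offspring of obesogenic dams (median 19.3) and 10.1 to 18.5 CPM in those of control dams (median 15.2). 7 of 8 obesogenic males lay above the control median. The log2 fold change was -0.22 ± 0.22 in females and 0.31 ± 0.21 in males without the 5 libraries, and -0.38 ± 0.20 and 0.28 ± 0.19 with them. The interaction was -0.66 ± 0.28 with 31 libraries (edgeR unadjusted p = 0.0237, adjusted p = 0.9996) and -0.53 ± 0.31 with 26.

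Of 9 tested genes of the CRH and stress axis, 6 were higher and 3 lower over both sexes, with a median log2 fold change of 0.02 and none called. With 26 libraries 4 were higher and 5 lower, with a median of -0.03. Nr3c1, the glucocorticoid receptor, stood at 0.14 ± 0.10 with 31 libraries and Fkbp5, a glucocorticoid-induced co-chaperone of that receptor, at -0.22 ± 0.17 (edgeR, adjusted p = 0.618 and 0.633). With 26 libraries they stood at 0.06 ± 0.06 and -0.28 ± 0.19.

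Gnrh1 (ENSMUSG00000015812, chromosome 14, 67745181 to 67749439), made by a few scattered neurons of the preoptic area and nearby tissue, spanned 1.28 to 3.96 CPM in obesogenic males (median 2.83) and 2.79 to 5.81 CPM in control males (median 5.14). In females it spanned 1.96 to 6.53 CPM in offspring of obesogenic dams (median 3.68) and 1.33 to 9.93 CPM in those of control dams (median 4.11). 8 of 8 obesogenic males lay below the mean and the median of control males, and the ranges overlapped, with control male 8 at 2.79 CPM. The log2 fold change in males was -0.81 ± 0.31 without the 5 libraries (95% interval -1.45 to -0.18, edgeR unadjusted p = 0.0141, adjusted p = 0.9996). With all 31 it was -0.89 ± 0.35 (unadjusted p = 0.0152, adjusted p = 0.940 by edgeR). In females it was -0.09 ± 0.33 and 0.00 ± 0.36, and the interaction was 0.72 ± 0.46 with 26 libraries and 0.89 ± 0.49 with 31 (edgeR unadjusted p = 0.123 and 0.0815).

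Markers of telencephalic interneurons, among them Npy and Nkx2-1 which hypothalamic cells also express, followed Gnrh1 across the 26 libraries (r = 0.56, rho = 0.47, adjusted permutation p = 0.0462 for r and 0.158 for rho). Their summed level was 113 to 149 CPM in obesogenic males and 127 to 164 CPM in control males (medians 131 and 139). 7 of 8 were lower in obesogenic males (median log2 fold change -0.16, none called), against 8982 of all 18694 genes. In females, where Gnrh1 differed little, 7 of 8 were lower as well (median -0.11, none called). The summed medians were 112 CPM in obesogenic and 148 CPM in control females. The part of these markers in the Gnrh1 difference was not tested.

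Tac2 (ENSMUSG00000025400, chromosome 10, 127724478 to 127731768), the neurokinin B gene, spanned 33.7 to 71.5 CPM in obesogenic females (median 48.7) and 38.1 to 65.2 CPM in control females (median 51.7). In males it spanned 29.4 to 40.8 CPM in offspring of obesogenic dams (median 37.4) and 28.3 to 48.3 CPM in those of control dams (median 39.5). Of the obesogenic females, 3 of 6 lay below the control median, and of the obesogenic males 7 of 8 lay below the control median and mean, with overlapping ranges in both sexes. The diet log2 fold change was -0.01 ± 0.15 in females and -0.11 ± 0.14 in males, with 95% intervals of -0.32 to 0.29 and -0.40 to 0.18, and 0.13 ± 0.25 and -0.28 ± 0.24 with all 31 libraries.

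Of 13 tested genes of the reproductive axis, 12 were higher and 1 lower in offspring of obesogenic dams over both sexes, with a median log2 fold change of 0.12. Without the 5 libraries, 10 of 14 were higher, with a median of 0.06. The smallest p belonged to Esr2, estrogen receptor beta, at 0.59 ± 0.30 with 31 libraries (edgeR, adjusted p = 0.5004) and 0.53 ± 0.30 with 26. Tacr3, the receptor of neurokinin B, stood at 0.24 ± 0.18 with 31 and 0.11 ± 0.09 with 26. None of the list was called, nor any of 14 peptide-processing genes (10 higher, 4 lower, median 0.06) or 16 neuroendocrine transcription factor genes (11 higher, 5 lower, median 0.11). The transcription factor genes turned to 7 higher and 9 lower (median -0.02) with 26 libraries, and the processing genes were 10 higher and 4 lower (median 0.03).

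**Figure D3:**
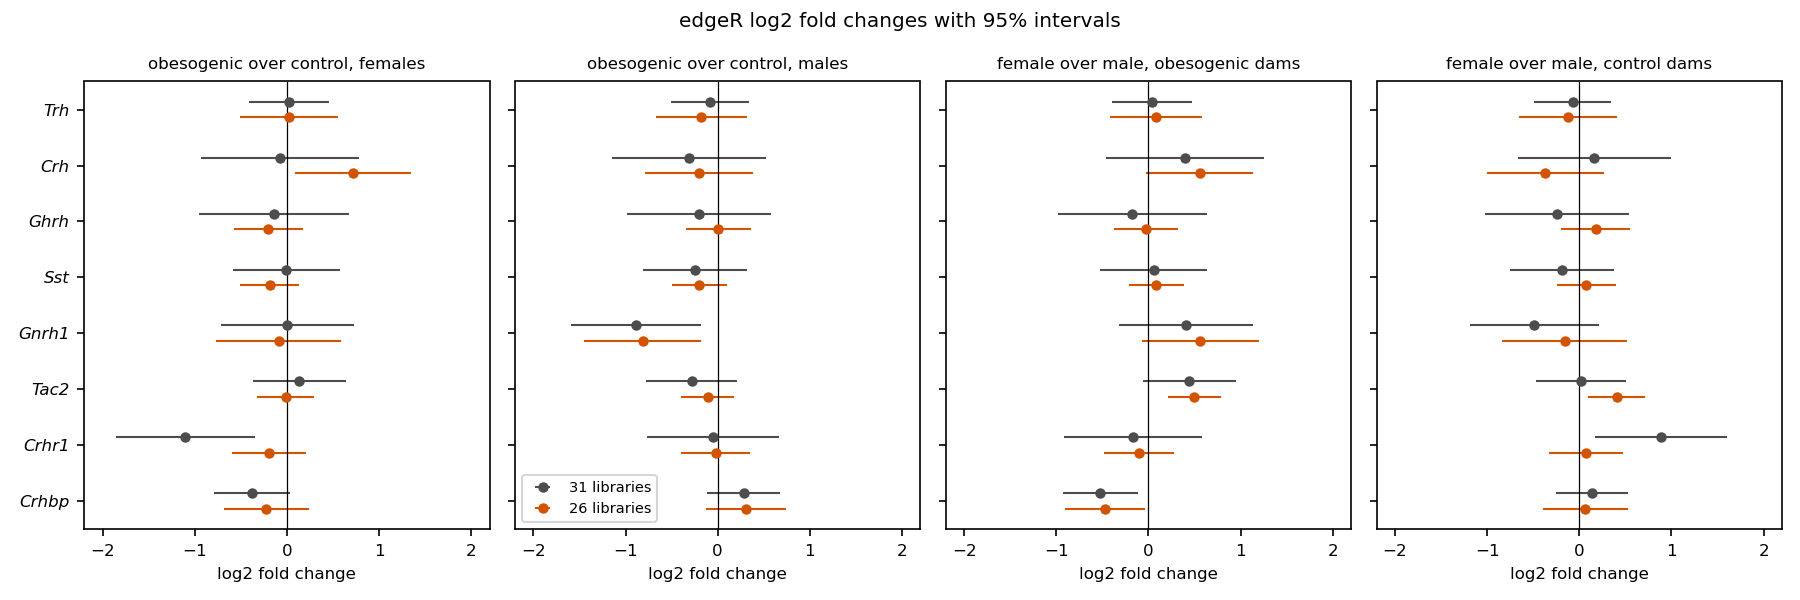
edgeR log2 fold changes of the 8 genes (points) with 95% intervals (lines) for maternal diet in each sex and for sex under each maternal diet, over 31 libraries (grey) and the 26 left without the 5 in doubt (orange). Crhr1 and Crh in females differ between the fits, at -1.10 and -0.08 with 31 libraries and -0.19 and 0.72 with 26, and the Tac2 intervals for sex lie above 0 with 26 libraries.

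To compare the sexes, females were set against males under each maternal diet. Tac2 was the gene of the 8 with the clearest separation. Over the 26 libraries it was 33.7 to 71.5 CPM in females (median 51.7, mean 51.1 ± 11.9 SD, n = 12) and 28.3 to 48.3 CPM in males (median 37.7, mean 37.1 ± 5.07 SD, n = 14). Of the 12 females, 7 lay above the highest male and 11 above the male median, so the ranges overlapped in part. The log2 fold change of females over males was 0.50 ± 0.14 in offspring of obesogenic dams and 0.40 ± 0.15 in those of control dams, with edgeR unadjusted p of 0.00125 and 0.0117.

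Averaged over the diets, the Tac2 difference was 0.45 ± 0.10, with an unadjusted p of 0.000137 and an adjusted p of 0.128 by edgeR, above the threshold. In that contrast 0.102% of 18694 genes were called, 19 in number, and none of the 8. In the single contrasts 0.0749% were called in offspring of obesogenic dams and 0.0588% in those of control dams. With all 31 libraries the Tac2 difference was 0.23 ± 0.17 (edgeR unadjusted p = 0.187), where 0.0267% of 18743 genes were called, none of the 8 and 0% within either diet (681 genes under obesogenic and 823 under control dams at an unadjusted p under 0.05, 12 and 1 called by DESeq2). Without only the 3 libraries that stood apart it was 0.40 ± 0.10. Of these, control female 5 had 7.27 CPM and control male 6 had 68.2 CPM. Of the 2 libraries against their sex label, the one labelled control female 7, with a male pattern of sex-linked genes, had 40.7 CPM, and the one labelled control male 7, with a female pattern, had 49.3 CPM. Of 18 hypothalamic markers, 6 were higher and 12 lower in females over the 26 libraries, with a median log2 fold change of -0.04. The part of library makeup in the Tac2 difference was not tested.

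Among the other 7 genes, Crhbp was lower in females than in males under obesogenic dams, at -0.47 ± 0.21 with 26 libraries and -0.52 ± 0.20 with 31 (edgeR unadjusted p = 0.0358 and 0.0141, adjusted p = 0.876 and 0.99998). Under control dams it was 0.07 ± 0.22 with 26. The other 6 genes had unadjusted p above 0.05 in both sex contrasts without the 5 libraries. With all 31, Crhr1 stood at 0.89 ± 0.35 in offspring of control dams (edgeR unadjusted p = 0.0174, adjusted p = 0.995), again with control female 5 at 76.8 CPM. In the reproductive list, Esr1, estrogen receptor alpha, was higher in females by 0.53 ± 0.12 over the 26 libraries (edgeR, adjusted p = 0.149) and by 0.39 ± 0.23 over 31. Tac1, the substance P gene, was at -0.22 ± 0.07 over the 26 (adjusted p = 0.803).

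To ask which of these peptides vary together, the levels of the 8 genes were correlated across the 26 libraries, as log2 CPM with each group's mean removed. Of 28 pairs, 16 had a positive and 12 a negative r, and 8 passed an adjusted permutation p of 0.05 by Pearson's r, 5 by Spearman's rho and 4 by both. Sst and Tac2 were the closest pair, with r = 0.81 and rho = 0.80 (adjusted permutation p = 0.00056 and 0.00084), and r = 0.78 without the 2 libraries farthest from the median of Sst. Trh rose and fell with Sst (r = 0.65, rho = 0.59, adjusted permutation p = 0.0158 and 0.037) and r was 0.54 without the 2 farthest libraries. Libraries rich in somatostatin transcripts were thus also rich in those of neurokinin B and TRH.

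Trh and Gnrh1 also covaried (r = 0.69, rho = 0.54, adjusted permutation p = 0.0165 and 0.0478, or 0.0152 and 0.0608 with RLE scaling). Control female 8 was the highest of the 26 in both, at 239 and 9.93 CPM, and without the 2 farthest libraries r was 0.42. Crhr1 and Crhbp, the receptor and the binding protein, varied together at r = 0.48 and rho = 0.51 (adjusted permutation p = 0.0345 and 0.0478), and at r = 0.44 without the 2 farthest. With RLE scaling the adjusted permutation p for Crhr1 and Crhbp were 0.0374 and 0.0608, and without removing group means 0.068 and 0.0834.

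The remaining 4 pairs passed by r and not by rho. Crh and its receptor Crhr1 varied in opposite directions (r = -0.58, rho = -0.51, adjusted permutation p = 0.0292 and 0.0737), with r = -0.53 without the 2 farthest libraries. Gnrh1 and Crhbp did so as well (r = -0.63, rho = -0.46, adjusted permutation p = 0.0345 and 0.128, r = -0.64 without the 2 farthest). So did Ghrh and Crhbp (r = -0.53, rho = -0.34, adjusted permutation p = 0.0292 and 0.267, r = -0.47 without the 2 farthest). Trh and Crh varied in the same direction (r = 0.55, rho = 0.44, adjusted permutation p = 0.0292 and 0.128, r = 0.42 without the 2 farthest). Trh and Tac2 passed by rho alone (r = 0.45, rho = 0.55, adjusted permutation p = 0.0597 and 0.0478). Ghrh and Sst, the opposed regulators of growth hormone, had r = 0.33 and rho = 0.31 (adjusted permutation p = 0.182 and 0.298), and Crh and Crhbp r = -0.26 and rho = -0.21 (adjusted permutation p = 0.288 and 0.444). With all 31 libraries 4 pairs passed by r, Sst with Tac2 at r = 0.94, Ghrh with Sst at 0.91, Ghrh with Tac2 at 0.90 and Trh with Gnrh1 at 0.58. Crh with Crhr1 was at r = 0.30 and Trh with Sst at 0.15. Without the 2 libraries farthest from the median of the first-named gene, r for the 4 pairs past by r was 0.81, 0.64, 0.68 and 0.38. Of those 4, Trh with Gnrh1 missed by rho (adjusted permutation p = 0.0511). Crhr1 with Crhbp and Ghrh with Gnrh1 passed by rho alone (adjusted permutation p = 0.0285 and 0.0465). Control female 5 was the lowest of the 31 in Ghrh, Sst and Tac2 (0.135, 13.8 and 7.27 CPM).

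**Figure D4:**
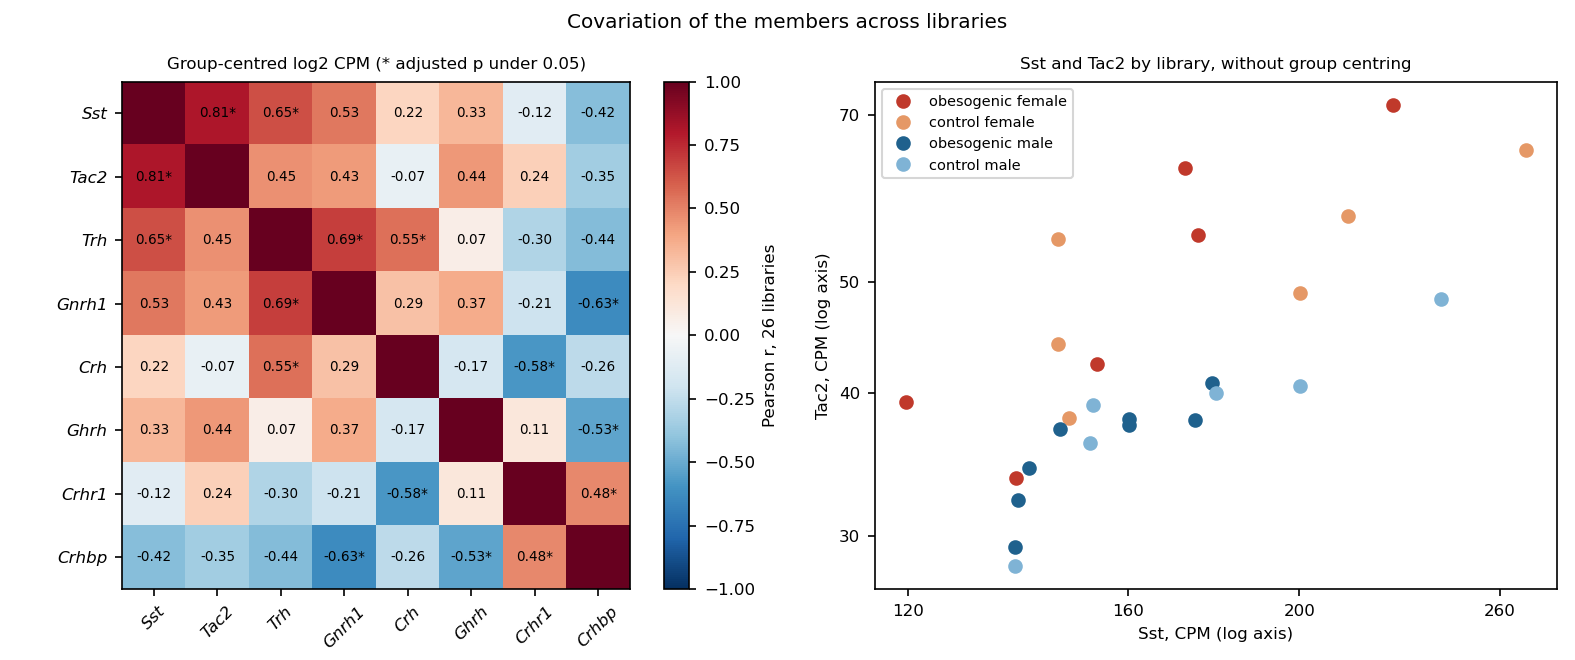
Left, Pearson r between the 8 genes over 26 libraries from log2 CPM with group means removed, asterisks marking adjusted permutation p under 0.05 (8 of 28 pairs). Right, Sst against Tac2 in CPM (log axes), 1 point per library coloured by group, where libraries with more Sst have more Tac2 in both sexes and 7 of 12 females lie above the highest male in Tac2 (r = 0.81 after group means are removed).

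The makeup of the libraries moved with some of these genes. Against 14 marker lists (112 relations, adjusted together), Sst and Tac2 followed the mean log2 level of the 18 hypothalamic markers, none of them among the 9 genes, with r = 0.88 and 0.83 and rho = 0.88 and 0.77 (adjusted permutation p = 0.00056 for each r and 0.0011 and 0.0048 for rho). The p behind both r is the smallest that the permutations can give, 1e-05. Both ran against the 6 astrocyte markers, Tac2 at r = -0.72 and rho = -0.78 (adjusted permutation p = 0.0015 and 0.0011) and Sst at r = -0.65 and rho = -0.65 (adjusted permutation p = 0.0078 and 0.0081). Sst also ran against oligodendrocyte markers (r = -0.59, rho = -0.59, adjusted permutation p = 0.0278 and 0.0375) and Tac2 against microglial ones (r = -0.64, rho = -0.59, adjusted permutation p = 0.0186 and 0.0426). Across the 26 libraries the hypothalamic markers summed to 1456 to 2531 CPM, the astrocyte markers to 1852 to 3247 CPM, the oligodendrocyte markers to 4836 to 8433 CPM and the microglial markers to 302 to 441 CPM. Their part in the covariation of Sst and Tac2 was not tested. Without the 2 libraries farthest from the median of each gene, r with the hypothalamic markers was 0.85 and 0.77.

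Crhr1 had other partners. It followed 9 striatal markers (r = 0.68, rho = 0.71, adjusted permutation p = 0.0025 and 0.0037) and ran against 5 measured ependymal markers (r = -0.65, rho = -0.62, adjusted permutation p = 0.0186 and 0.0375). The striatal markers summed to 170.3 to 227 CPM and the ependymal markers to 67.3 to 198 CPM over the 26 libraries, and their part in the spread of Crhr1 was not tested. In all, 16 of the 112 relations passed by r and 9 by both measures.

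The genes whose group-centred levels were most like each member were taken from 15278 named genes, by Pearson's r over the same 26 libraries, as a description with no test. For Sst they were Ly6h (r = 0.95), Erp29 (0.91) and Itm2c (0.90), and for Tac2 Arhgap36 (0.91), Lrpap1 (0.89) and Slc22a17 (0.88). For Trh they were Mrap2 (r = 0.88), an accessory protein of melanocortin receptors, Bspry (0.83) and Dlx6 (0.83), a homeobox factor of forebrain inhibitory neurons. Dlx6 (r = 0.82) also led for Gnrh1, before Nsun7 (0.81) and Ngb (0.78).

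For Ghrh they included Npff (r = 0.74) and Gpr50 (0.72), and for Crhbp Pgk1 (0.77), Nr4a2 (0.76) and Sbf1 (0.76). For Crhr1 they were Slc17a8 (r = 0.75), the vesicular glutamate transporter 3, Pld5 (0.73) and Cnih3 (0.72). Crh had the least close neighbours, Styxl1 (r = 0.68), Nts (0.68), the neurotensin gene, and Rgs10 (0.67).

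Crh and Ghrh lay outside the range of the 26 in all 3 libraries that stood apart, though not on the same side, and the other genes outside it differed between the 3. In the library labelled control female 5, Ghrh had 5 read pairs, or 0.135 CPM, and the median of the 26 was 94.8 times higher. Sst was at 13.8 CPM and Tac2 at 7.27 CPM, and their medians were 11.4 and 5.46 times higher. Crhr1, at 76.8 CPM, was 7.39 times the median of the 26 and Crh, at 13.9 CPM, was 5.13 times it. Trh (139.7 CPM), Gnrh1 (1.35 CPM) and Crhbp (25.8 CPM) lay inside the range of the 26. In this library 3 of the 8 genes were thus below the range of the 26, 2 above it and 3 inside it.

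The regional markers of control female 5 moved in the same way. Its 18 hypothalamic markers summed to 25.4 CPM and 17 of them lay under the range of the 26, with Otp at 0.162 CPM, Pmch at 0.0270 CPM and Sim1 at 0. Its 10 olfactory bulb markers summed to 3131 CPM, against 311 to 520 CPM in the 26, and 9 of them exceeded that range, with Eomes at 165 and Doc2g at 234 CPM. Its 13 cortical and hippocampal markers summed to 1482 CPM, against 198 to 361 CPM, with 8 above the range and 3 under it. Slc17a7 alone gave 709 CPM of that sum. Slc17a7 and Tbr1 belong to the olfactory bulb list as well, so the sums of these lists are not separate.

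In control male 6, Ghrh (25.5 CPM) and Crh (7.14 CPM) exceeded the range of the 26, while the other 6 genes lay inside it, and its hypothalamic markers summed to 4102 CPM, 2.21 times the median. In obesogenic female 3, Crh (1.10 CPM), Ghrh (4.23 CPM) and Gnrh1 (1.02 CPM) lay below the range and 5 genes inside it, with hypothalamic markers at 1930.2 CPM, inside the range. In both libraries against their sex label, all 8 genes lay inside the range of the 26.

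**Figure D5:**
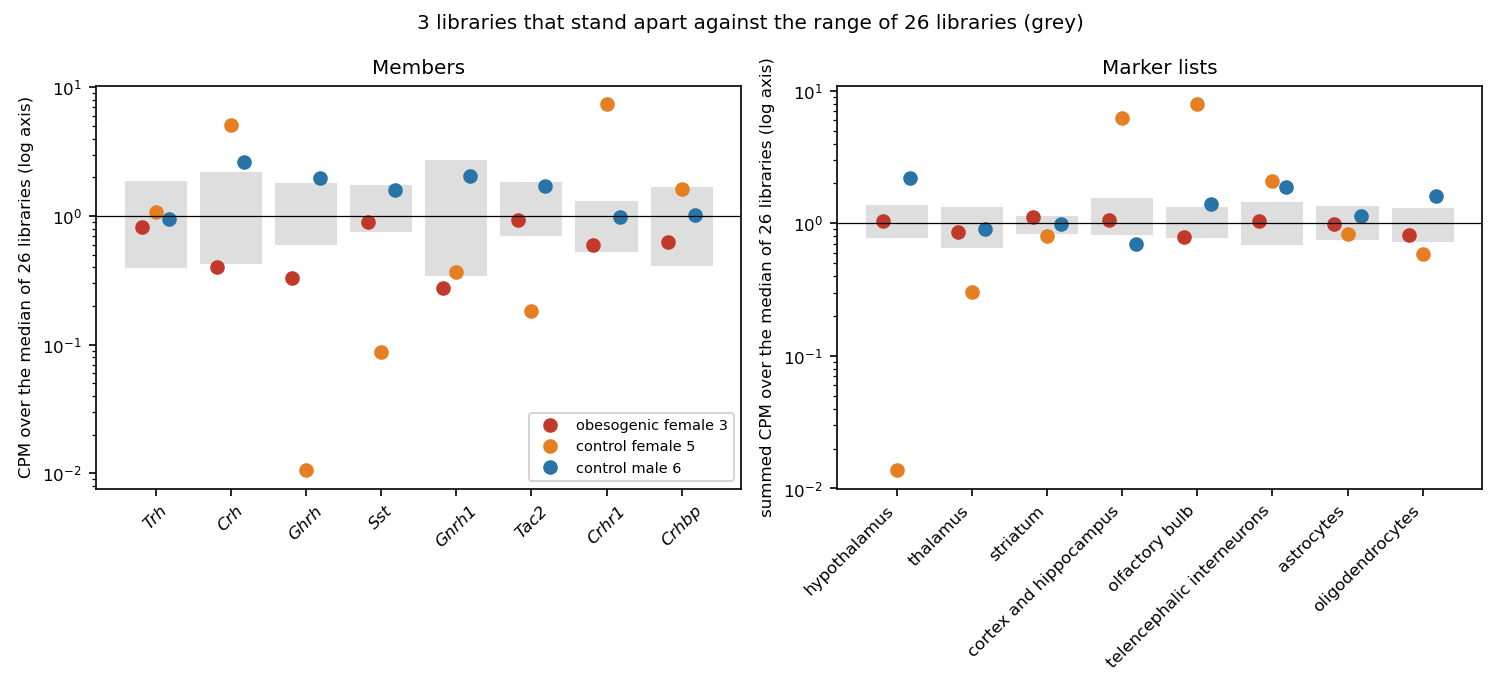
CPM of the 8 genes (left) and summed CPM of 8 marker lists (right) in the 3 libraries that stand apart, as multiples of the median of the other 26 libraries, whose range is the grey band (log axes). Control female 5 has Ghrh, Sst and Tac2 and the hypothalamic markers below the band and Crh, Crhr1, cortical and olfactory bulb markers above it, while Trh stays near 1.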

How the data were processed

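RNA was isolated from hypothalamus with the RNAqueous kit and libraries followed Illumina TruSeq protocols, per the labels' protocols. The authors' deposited table holds counts of read pairs per gene, not normalized, produced by featureCounts 1.6.2, per the file headers, which give Ensembl release 94 models of GRCm38, reverse-stranded counting, a mapping quality of at least 10 and both ends aligned. FastQC, TopHat2 2.0.13, Subread and edgeR with build mm10 are named in the submitters' processing notes.

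All 31 columns were matched to library titles, and 54409 of 54532 gene IDs to symbols. Differences were tested on the counts with edgeR 4.0.16 in R 4.3.3 (filterByExpr, TMM, robust quasi-likelihood, 4 group means, Benjamini and Hochberg over all genes tested, threshold 0.05). CPM are TMM-scaled over the tested genes. Even the most similar pair of libraries had a chi-square of 8.03 per degree of freedom, so no library was taken as a repeat. A library stood apart where its median correlation with the others was more than 3 median absolute deviations under that of all libraries. Correlations used log2 CPM (prior count 2) with group means removed and 100000 two-sided permutations within groups, adjusted over the pairs. Exon overlaps were read from the exon positions in the deposited table. Of the 36 pairs planned for 9 members, the 8 with Kiss1 could not be computed. On simulated counts for diet in females over 18475 genes, the edgeR step recovered 59.2% of genes changed by a log2 of 1 and 92% of those changed by 2, with 6 false calls. 100 of each were simulated, and the shares are over those that passed the filter. No library that stood apart or went against its sex label was simulated, so the shares need not carry over to the 31 libraries. Alternatives were DESeq2 1.42.0, limma 3.58.1 voom with quality weights, RLE scaling, no filter, 1 CPM in 7 libraries, 2 surrogate variables (sva 3.50.0), a fit on the compared groups alone, and fits without the libraries in doubt. The text names the 9 members, the genes of smallest p of each fixed list in the mean diet and mean sex contrasts (a part of them printed), and the 3 genes most like each member, of which 1 is not reported here. The members and lists were chosen with earlier results of these data known.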

Additional observations from a re-analysis of the deposited data

Results flagged for a closer look

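Within groups of 7 or 8 libraries, 32 combinations of gene and group were examined for a single library far from the others. 7 held one by Dixon's ratio at the 95% level. Chance alone marks about 1 in 20 groups, but the genes of a group share its libraries, so the 32 are not independent. For Trh in control female 8, Tac2 and Ghrh in control female 5 and Ghrh in control male 6, the ratio was only 0.531 to 0.535, against a critical value of 0.526. 5 of the 7 lay in libraries that stand apart. In control female 5, Crh was 13.9 CPM (next 4.45), Crhr1 76.8 CPM (next 13.3), Ghrh 0.135 CPM (next 12.2) and Tac2 7.27 CPM (next 38.1). In control male 6, Ghrh was 25.5 CPM (next 18.1).

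The other 2 lay in control female 8, a library that neither stands apart nor goes against its sex label. Its Trh was 239 CPM (next 139.8) and its Gnrh1 9.93 CPM (next 4.33). The same library had the highest Sst of the 26 libraries, at 268.9 CPM, and the lowest Crhbp, at 6.65 CPM. The ratios for Trh and Gnrh1 were taken over all 8 libraries labelled control female, control females 5 and 7 among them. They were not taken again over the 6 retained ones.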

How the results depend on the processing

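None of the 8 genes passed the threshold in any contrast under any alternative, and 478 of 536 log2 fold changes kept their direction. RLE scaling, no filter, the stricter filter and fitting only the groups compared turned none of them. Of the other 58, named below by contrast, the cause was not tested. No paired analysis was possible because the labels give no replicate numbers shared between groups, and numbers here follow the order of the samples.

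With 2 surrogate variables, the diet values that turned were Crh 0.57, Gnrh1 -0.10 and Tac2 -0.058 in females, Ghrh 0.027 in males and Crh 0.16 over both sexes, with interactions of -0.36 for Ghrh and -0.14 for Sst. The sex values were Sst -0.021 under obesogenic dams, Crh -0.43, Crhr1 -0.028, Crhbp -0.027, Ghrh 0.11 and Sst 0.12 under control dams, and Crh -0.028, Crhr1 -0.075, Gnrh1 0.042 and Sst 0.049 over both. With DESeq2, Crhr1 for sex over both diets was -0.068. With voom, the diet values were Crh 0.79 and Tac2 -0.028 in females, Crh 0.0032 in males, and Crh 0.40, Crhbp 0.056 and Trh 0.027 over both, with interactions of -0.025 for Ghrh and -0.040 for Sst. The sex values were Sst -0.0022 under obesogenic dams, Crh -0.18 and Sst 0.038 under control dams, and Crhr1 -0.0042 and Sst 0.018 over both.

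Without the 5 libraries, the diet values were Crh 0.72, Gnrh1 -0.089 and Tac2 -0.015 in females, Ghrh 0.0060 in males, and Crh 0.26 and Crhbp 0.044 over both, with an interaction of -0.21 for Ghrh. The sex values were Crh -0.37, Ghrh 0.18 and Sst 0.078 under control dams, and Crhr1 -0.016, Ghrh 0.077, Gnrh1 0.20 and Sst 0.082 over both. Without only the 3 that stand apart, they were Crh 0.75 for diet in females, Crh 0.33 and Crhbp 0.041 for diet over both sexes, and -0.099 for the interaction of Ghrh. For sex they were Crh -0.28, Ghrh 0.082 and Sst 0.065 under control dams, and Crhr1 -0.028, Ghrh 0.032, Gnrh1 0.15 and Sst 0.080 over both. Without only the 2 against their sex label, Gnrh1 was -0.10 and Trh -0.030 for diet in females.

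Counts of all genes called moved as follows. DESeq2 called 6 genes for diet in females, 1 in males, 5 over both and 6 for the interaction, and 12, 1 and 15 for sex under obesogenic dams, under control dams and over both. For sex under obesogenic dams and over both, the counts were 2 and 1 with voom, 5 and 8 with 2 surrogate variables, and 1 and 10 without the 3 libraries. Fitting only the groups compared gave 12 under obesogenic dams, and no filter gave 1 over both. Without the 2 libraries they were 9 under obesogenic dams, 10 under control dams and 13 over both, and without all 5 they were 14, 11 and 19. Among pairs of members, 4 passed by Pearson's r with all 31 libraries and 8 with the 26, and Crh with Crhr1 turned to r = 0.30 with all 31. Of the 4 pairs past both measures, Trh with Gnrh1 and Crhr1 with Crhbp missed by rho under RLE scaling (adjusted permutation p = 0.0608 for each), and Crhr1 with Crhbp missed by both without removing group means (0.068 and 0.0834).

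With 1 read pair worth 0.0254 to 0.0442 CPM, Crh rests on 27 to 515 and Gnrh1 on 25 to 279 pairs per library, and intervals cover the spread between libraries. Kiss1 could not be measured.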
